A study of Caenorhabditis elegans with 2 samples.

Results

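The 6 genes described here encode fat-splitting enzymes of Caenorhabditis elegans. They are lipl-1, lipl-2, lipl-3, lipl-4 and lipl-5, which resemble the lysosomal acid lipase of mammals, and atgl-1, the adipose triglyceride lipase of the worm. They were chosen by name out of 19973 protein-coding genes on the nuclear chromosomes, with earlier results of these data known. Every chromatin immunoprecipitation (ChIP-seq) peak in each gene body or within 5 kb of it was collected. The libraries were 2 biological replicates of 1 group of whole L4 larvae, the last larval stage, with males and females pooled, as labelled. All worms were of strain OP355, which combines the unc-119(tm4063) III allele with the integrated transgene wgIs355. The labels do not settle which GFP-tagged protein was precipitated: strain and antibody fields name mdl-1, and a free-text field names eGFP-ZK337.2, a gene called klu-1 in the annotation. There was no second condition. The peaks stand for an average over all tissues of the animal, and a factor that came from a transgene may not be present at its usual level or in its usual cells.

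Stored fat is broken down by separate routes. Lysosomal acid lipases cut triglycerides and cholesteryl esters inside the lysosome, and in the worm the lipl genes act mainly in the intestine, which is also the main fat depot. ATGL enzymes instead work on the surface of lipid droplets in the cytosol and take the first fatty acid off a triglyceride. In fed worms the bHLH protein MXL-3 is known to hold several lipl genes down, and on fasting the TFEB homologue HLH-30 turns them on, both through the E-box CACGTG. MDL-1 is a Mad-like protein of the same bHLH leucine zipper class, and Mad, Max and Myc dimers bind CACGTG as well. LIPL-4 is known for a lysosome-to-nucleus lipid signal that lengthens life when the enzyme is overproduced.

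The IDR list held 4293 peaks, the list called on both replicates together (pooled) 27577, replicate 1 29572 and replicate 2 28282, and the read depth behind them is unknown. Peaks reproducible by the authors' irreproducible discovery rate (IDR) comparison lay at 4 of the 6 genes. There were 10 such peaks in all, 5 at atgl-1, 2 each at lipl-2 and lipl-5 and 1 at lipl-4, and none at lipl-1 and lipl-3. Across all protein-coding genes, 37% had an IDR peak in the gene body or within 5 kb and 13.2% had 2 or more. A promoter window was set from 1000 bp upstream to 200 bp downstream of the annotated start, and a gene is called bound here where an IDR summit fell in it. By this rule 3 of the 6 genes were bound, lipl-2, lipl-5 and atgl-1, against 10.9% of all protein-coding genes. The 6 were chosen with earlier results of these data known, so this share describes them and tests nothing. In all 4 genes the IDR summits stood at or upstream of the gene start, and none lay further inside the gene or beyond its end. Over all pairs of a gene and an IDR peak in the same reach, 51.6% of summits were at or upstream of the start, and 44.9% of genes with such a peak had all their summits there.

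**Figure D1:**
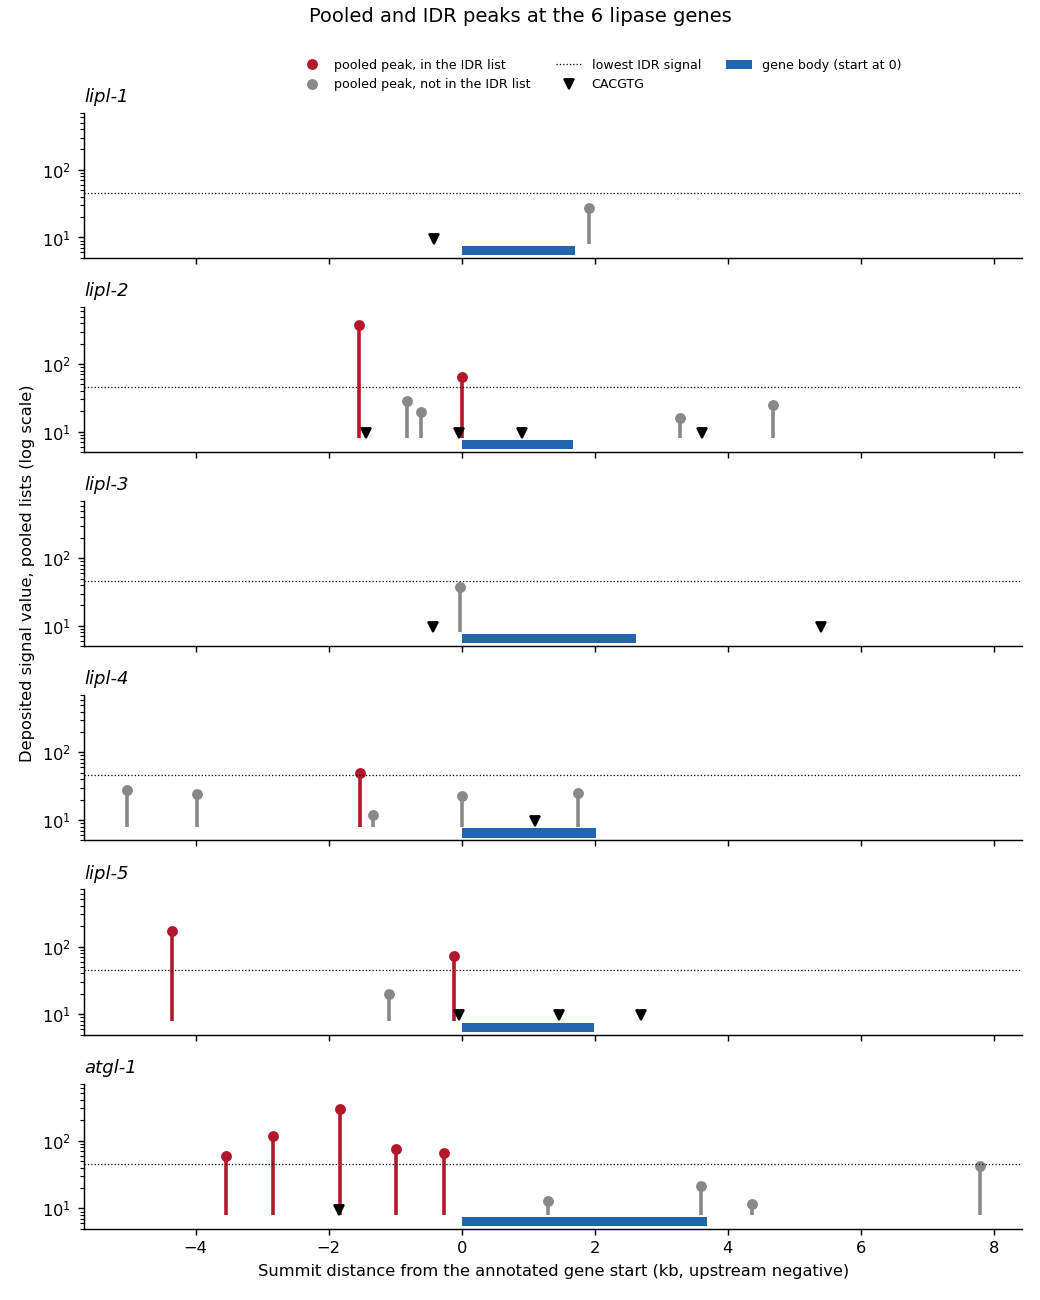
Summits of the peaks called on both replicates together, by distance from the gene start in kb (x axis) and deposited signal value on a log scale (y axis), 1 panel per gene. Red stems are peaks in the IDR list, grey stems are pooled peaks below it, the dotted line is the lowest IDR signal (45.6), blue bars are gene bodies and triangles are CACGTG sites. The red stems stand at the start or on its upstream side in lipl-2, lipl-4, lipl-5 and atgl-1, and lipl-1 and lipl-3 have grey stems only.

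The sequences under the promoter peaks are shown first because 2 of them hold the E-box close to the gene start and the others do not. Each is read from the RefSeq sequence of ce11 (WBcel235) on the strand of the gene, 5′ to 3′, 200 bases around the summit or, at lipl-2, the 100 of them before the first annotated base of the gene. Capitals mark CACGTG and TGATAA, which is TTATCA on the other strand, the core site of intestinal GATA factors. The lines give lipl-2 at V:9791467-9791566, lipl-5 at V:385536-385735, and atgl-1 at III:6419618-6419817 and III:6420348-6420547.
lipl-2: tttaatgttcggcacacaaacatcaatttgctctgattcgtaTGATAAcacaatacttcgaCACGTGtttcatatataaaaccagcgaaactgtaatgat
lipl-5: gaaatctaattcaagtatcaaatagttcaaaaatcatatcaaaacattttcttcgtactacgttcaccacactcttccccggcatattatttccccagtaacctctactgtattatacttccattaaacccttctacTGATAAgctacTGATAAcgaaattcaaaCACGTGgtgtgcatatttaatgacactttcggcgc
atgl-1, nearer summit: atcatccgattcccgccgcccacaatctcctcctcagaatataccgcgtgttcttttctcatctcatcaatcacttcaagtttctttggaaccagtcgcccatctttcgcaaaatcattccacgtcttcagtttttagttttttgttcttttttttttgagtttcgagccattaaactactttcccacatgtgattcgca
atgl-1, further summit: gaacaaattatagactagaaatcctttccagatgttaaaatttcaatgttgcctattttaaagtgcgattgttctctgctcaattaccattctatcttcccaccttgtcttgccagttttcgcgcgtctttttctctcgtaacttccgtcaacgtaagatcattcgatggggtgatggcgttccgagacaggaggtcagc

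lipl-2 (WBGene00009773, V:9791567-9793241, plus strand) had its promoter peak at V:9791369-9791764. The IDR summit stood on the first annotated base of the gene, and the summits of replicate 1 and replicate 2 stood 34 and 104 bp upstream of it. The signal was 36.7 in replicate 1, 31.4 in replicate 2 and 64.0 in the IDR list, where it ranked 2722 among 4293 peaks. Signal is the peak caller's own value, with no scale given in the sources used here, and it runs higher in the lists made from both replicates. The replicate signals lay close together at this peak. It ranked 2454 of 29572 in replicate 1 and 2820 of 28282 in replicate 2, high in each full list, but in the weaker part of the shorter IDR list. A CACGTG site was centred 37 bp upstream of the start.

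lipl-5 (WBGene00022642, V:385746-387740, plus strand) resembled lipl-2 in where its peak and its E-box stood. The promoter peak covered V:385438-385833, with the summit 110 bp upstream of the start. Its signal was 42.9 in replicate 1, 29.2 in replicate 2 and 73.7 in the IDR list, rank 2211, which is close to the median IDR signal of 75.0. The CACGTG site was centred 43 bp upstream of the start. Replicate 2 placed its summit 34 bp upstream of the start, nearer to the E-box than replicate 1 did. The gene has 4 annotated transcripts, and the one that begins furthest inside it starts 779 bp downstream, away from any IDR peak.

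atgl-1 (WBGene00015484, III:6415772-6419459, minus strand) had a row of 5 IDR peaks over the region upstream of its start. The nearest, at III:6419520-6419915, had its summit 259 bp upstream and a signal of 36.1 in replicate 1, 30.6 in replicate 2 and 65.4 in the IDR list. The next, at III:6420250-6420645, was 989 bp upstream, with 41.1, 33.0 and 76.2 in the same order. This second summit lay only just inside the promoter window, so atgl-1 counted as bound by the nearer peak also when the window began 500 bp upstream. At both promoter peaks replicate 1 was a little higher than replicate 2, and neither peak held CACGTG.

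The tallest atgl-1 peak stood outside the promoter window. It covered III:6421106-6421450, with the summit 1823 bp upstream of the start. Its signal was 163.8 in replicate 1, 131.5 in replicate 2 and 295.0 in the IDR list, rank 147, and no start of another protein-coding gene was nearer. This peak is among the strong ones in every list. The annotation places it in the 3′ UTR of C05D11.8, named fhip-1 in RefSeq, the next gene upstream on the same strand, whose own start lies 7846 bp from that of atgl-1. A CACGTG site was centred 20 bp from this summit. Further up, the peak at III:6422091-6422486 in the same 3′ UTR had signals of 64.9, 51.7 and 118.6, and the peak at III:6422801-6423196 in an intron of C05D11.8 had 23.5, 37.4 and 59.7 (replicate 1, replicate 2 and IDR list). The last was the only one of the 5 with the higher value in replicate 2.

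As a count, 5 IDR peaks in reach of 1 gene were uncommon: 0.661% of all protein-coding genes had as many or more. The reach grows with gene length, and among the 15071 genes no longer than the 3688 bp of atgl-1 the share was 0.272%. A strongest peak at least as high as that of atgl-1 lay in reach of 1.71% of genes. atgl-1 was chosen with such values known, so these shares describe it and test nothing.

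Other tall peaks in reach of lipl genes stood in front of neighbouring genes. The tallest of all 10 peaks, at V:9789902-9790182, had a signal of 212.9 in replicate 1, 173.2 in replicate 2 and 379.6 in the IDR list, rank 78. It lay 1546 bp upstream of lipl-2 and 314 bp upstream of ztf-7, a zinc finger gene read in the opposite direction. Its IDR summit fell on the non-coding RNA gene F46B6.15, while the summits of both replicates fell just outside that gene. The starts of lipl-2 and ztf-7 are 1860 bp apart. A peak as tall or taller was in reach of 0.921% of genes. The stronger lipl-5 peak, at V:381328-381445, had 95.9 in replicate 1, 71.9 in replicate 2 and 170.0 in the IDR list, rank 523. It lay 4353 bp upstream of lipl-5 but 515 bp upstream of ZK6.8, the gene in between, which is read in the same direction.

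No promoter peak of the bound lipases was shared with the promoter window of a neighbour. The 4 promoter peaks of lipl-2, lipl-5 and atgl-1 lay in the window of their own gene alone. Of all IDR peaks in a promoter window, 21.9% lay in 2 or more, and 4 peaks are too few to set these genes apart from that share. With neighbour windows that reached 2000 bp upstream, 1 of the 4 was shared, that of lipl-2 with ztf-7. Of the 6 peaks outside the lipase windows, 3 lay in a window of another protein-coding gene, namely ztf-7, ZK6.8 and K04A8.20.

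lipl-4 (WBGene00019376, V:6550171-6552186, plus strand) had 1 IDR peak, and the replicates differed there more than anywhere else in the set. The peak at V:6548439-6548834 had a signal of 11.2 in replicate 1, 33.3 in replicate 2 and 48.8 in the IDR list, rank 3917, near the lower end of the list. Replicate 1 thus showed a weak peak, ranked 12351 of 29572 in its own list, and replicate 2 a clear one, ranked 2598 of 28282. The log2 ratio of replicate 1 to replicate 2 was -1.57, a value reached or passed downward by 0.538% of the 4279 IDR peaks with a match in both replicates. The summit was 1534 bp upstream of lipl-4 and 811 bp upstream of K04A8.20, a small coding gene in between, and it fell on the non-coding RNA gene K04A8.12.

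At the lipl-4 start itself the situation was reversed. Replicate 1 had a peak of signal 20.6 with the summit 4 bp downstream of the start, replicate 2 listed none in the promoter window, and the pooled list gave 23.0, below the lowest IDR signal of 45.6. Neither lipl-4 site was therefore strong in both libraries. The non-coding RNA gene K04A8.15 overlaps this start, on the other strand. Among the strongest 4293 peaks of replicate 2 there was 1 in reach of lipl-4, and among those of replicate 1 there was none.

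lipl-3 (WBGene00020016, V:521595-524218, minus strand) came nearest to the IDR list without entering it. A peak at V:524041-524436, with the summit 21 bp upstream of the start, had a signal of 23.3 in replicate 1, 17.9 in replicate 2 and 37.2 in the pooled list. Both replicates thus listed a peak at the start. The pooled value was 81.6% of the lowest IDR signal and ranked 5469, which is 1176 places below the last IDR peak. The lipl-4 peak stood 376 places above it. Apart from this peak, the pooled list had none in the body of lipl-3 or within 5 kb.

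lipl-1 (WBGene00010062, V:12919986-12921692, plus strand) was the emptiest of the 6 at its promoter. Replicate 1 listed a peak of signal 11.2 with the summit 85 bp upstream of the start, and neither replicate 2 nor the pooled list had one in the promoter window. The pooled list held 1 peak in reach, V:12921700-12922095, with a signal of 14.1 in replicate 1, 12.1 in replicate 2 and 27.0 in the pooled list. It lay just past the end of lipl-1 and 710 bp upstream of dhrs-4, a gene of the short-chain dehydrogenase family. Replicate 2 also listed a stronger peak that overlapped it, V:12921496-12921891, with a signal of 15.3.

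Read without the IDR threshold, weak peaks were common at these genes, as they were across the genome. The pooled list held 26 peaks in reach of the 6 genes, with signals from 11.5 to 379.6, of which 16 were below the IDR list. Every one of the 6 had at least 1, as did 82.1% of all protein-coding genes, and the same held in each replicate, against 86% of all genes in replicate 1 and 86.9% in replicate 2. A pooled summit lay in the promoter window of 5 of the 6, all but lipl-1, against 38.9% of all genes. Replicate 1 listed 34 peaks in reach and a promoter summit at all 6 genes, against 40.6% of all genes. Replicate 2 listed 26 peaks in reach and a promoter summit at 4, all but lipl-1 and lipl-4, against 39.7% of all genes.

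Among the 16 pooled peaks in reach that were not in the IDR list, the tallest lay downstream of atgl-1. Its summit was 7787 bp past the atgl-1 start, at the boundary of nas-4 and C05D11.5, and its signal was 17.9 in replicate 1, 23.3 in replicate 2 and 42.1 in the pooled list. It is nearer to the start of C05D11.5 than to any other. Inside atgl-1 itself the pooled list had weak summits alone, with 13.1 in an intron and 21.3 in the 3′ UTR. Between the promoter peak of lipl-2 and the tall peak toward ztf-7 stood weak pooled peaks of 28.4 and 19.2, with summits 819 and 612 bp upstream of lipl-2. Upstream of lipl-5, a pooled peak of 19.9 lay in the 3′ UTR of ZK6.8, and replicate 1 was higher there (17.96) than replicate 2 (6.09).

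**Figure D2:**
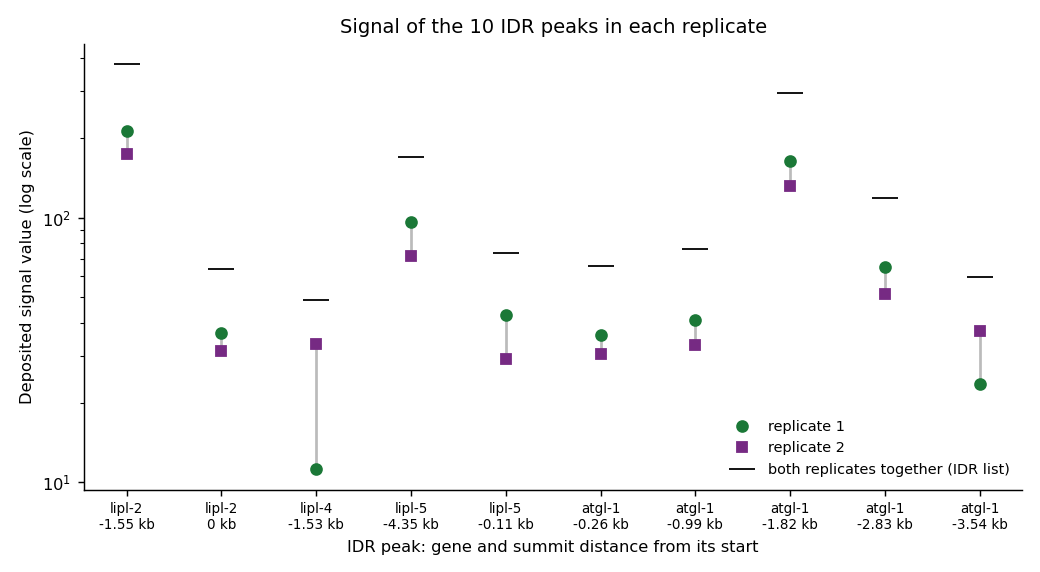
Deposited signal value on a log scale (y axis) of the 10 IDR peaks at the lipase genes (x axis, with the distance of the summit from the gene start): circles are replicate 1, squares replicate 2 and dashes the IDR list. Replicate 1 is above replicate 2 at 8 peaks, and the gap is widest at lipl-4, where the values are 11.2 and 33.3.

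The replicates ordered the 10 peaks alike at the top and differed at the bottom. All 10 had an overlapping peak in each replicate's list, as had 99.7% of IDR peaks. Replicate 1 gave the higher signal at 8 of the 10, and at 58.3% of the 4279 matched IDR peaks. Over the 10 peaks the median log2 ratio, replicate 1 over replicate 2, was 0.31, and over all matched peaks it was 0.10. The 8 ratios above 0 ran up to 0.56, within the standard deviation of 0.57 over all matched peaks. Both negative ratios, at lipl-4 and at the most distant atgl-1 peak, were larger than that standard deviation in size. With 1 value per replicate and no control list, none of these differences could be tested.

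**Figure D3:**
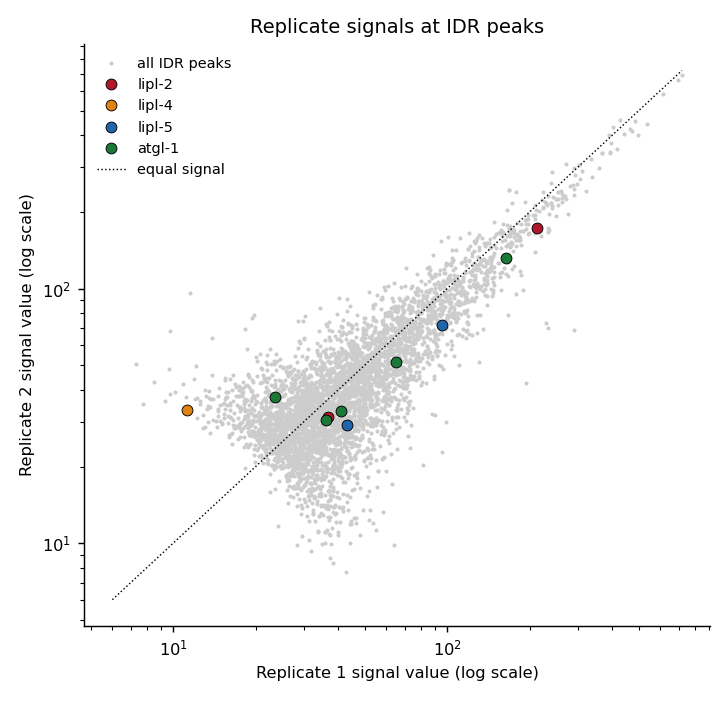
Signal value in replicate 1 (x axis) against replicate 2 (y axis), both log scales, for the 4279 IDR peaks with a match in both lists (grey) and the 10 at the lipase genes (coloured by gene); the dotted line marks equal signal. The lipl-4 peak lies far above the line at 11.2 and 33.3, while the tall lipl-2 and atgl-1 peaks lie just below it.

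The E-box was present near more of these promoters than were bound. The promoter windows of lipl-1, lipl-2, lipl-3 and lipl-5 each held 1 CACGTG and those of lipl-4 and atgl-1 held none, so that 4 of 6 had it, against 18.4% of all protein-coding promoter windows. Of these 4, lipl-2 and lipl-5 were bound and lipl-1 and lipl-3 were not. Among all windows with CACGTG, 16.6% had an IDR summit, and among windows without it 9.66%. CACGTG reads the same on both strands.

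Among the 4 promoter windows with an E-box, it stood close to the start in the bound genes lipl-2 and lipl-5 and further away in lipl-1 and lipl-3. The sites were centred 37 bp upstream in lipl-2 and 43 bp in lipl-5, but 421 bp in lipl-1 and 428 bp in lipl-3. The bound gene atgl-1 had its only site in reach 1843 bp upstream, outside the window. The lipl-1 and lipl-3 sites lay under no peak of the pooled list or of either replicate. Over all genes the distance alone made little difference: an IDR summit lay in 14.9% of the 503 promoter windows (2.52% of all) whose nearest upstream CACGTG was centred within 100 bp of the start, and in 13.5% of the 281 (1.41% of all) where it was 400 to 500 bp away. These distance classes were chosen after the lipase sites had been seen.

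In the whole searched regions, 12 CACGTG sites were found and 4 lay inside an IDR peak. Over the nuclear genome 5.67% of 17729 sites did. The 4 were the promoter sites of lipl-2 and lipl-5, the site under the tallest atgl-1 peak and a site in the tall peak between lipl-2 and ztf-7. They are printed here, with the promoter sites of lipl-1 and lipl-3, over which no list had a peak, as 30 bases on the strand of the lipase gene with the E-box in capitals, to show how the bases next to it differ. Positions are V:9791516-9791545 and V:9790114-9790143 for lipl-2, V:385689-385718 for lipl-5, III:6421288-6421317 for atgl-1, V:12919551-12919580 for lipl-1 and V:524632-524661 for lipl-3.
lipl-2, promoter peak: acaatacttcgaCACGTGtttcatatataa
lipl-2, peak toward ztf-7: atgtttagatgtCACGTGgtgtctatggac
lipl-5, promoter peak: acgaaattcaaaCACGTGgtgtgcatattt
atgl-1, tallest peak: aacgtgactcgtCACGTGgtgtcaaaagac
lipl-1, no peak: tttttaaaaaacCACGTGgaaatatttcag
lipl-3, no peak: cggtcaaacatgCACGTGttttaacgccta

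The tallest lipl-2 and atgl-1 peaks shared bases on both sides of the E-box. A site of fixed length, 10 bases, was counted from them, GTCACGTGGT (ACCACGTGAC on the other strand). The match between the 2 printed lines runs on past its last base, and the lipl-5 promoter site shares its CACGTGGT part. The 10-base site occurred inside 0.582% of IDR peaks and within 100 bp of the summit in 0.536%. Of its 172 occurrences in the nuclear genome, 14.5% lay inside an IDR peak. It was singled out after the sequences had been seen. In the lipl-2 peak it was centred 107 bp from the IDR summit, just beyond the 100 bp used to count a peak as carrying the motif, and 93 and 71 bp from the summits of replicate 1 and replicate 2.

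Counted within 100 bp of the summit, CACGTG lay at 3 of the 10 peaks, the promoter peaks of lipl-2 and lipl-5 and the tallest of atgl-1, against 18.4% of all IDR peaks. GAGAGA or TCTCTC lay at 4 of the 10, against 44% of all IDR peaks, and none of these 4 had CACGTG within that distance. TGATAA or TTATCA lay at 5 of the 10, and in 26.2% of all IDR peaks, with 2 occurrences at each of the lipl-2 and lipl-5 promoter peaks. All 3 peaks with CACGTG also held TGATAA or TTATCA. How often CACGTG occurs together with either of the other motifs over all IDR peaks was not counted, so these joint counts describe the 10 peaks alone. The GATA motif was added after the sequences had been seen, and a match says nothing on which protein was there.

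**Figure D4:**
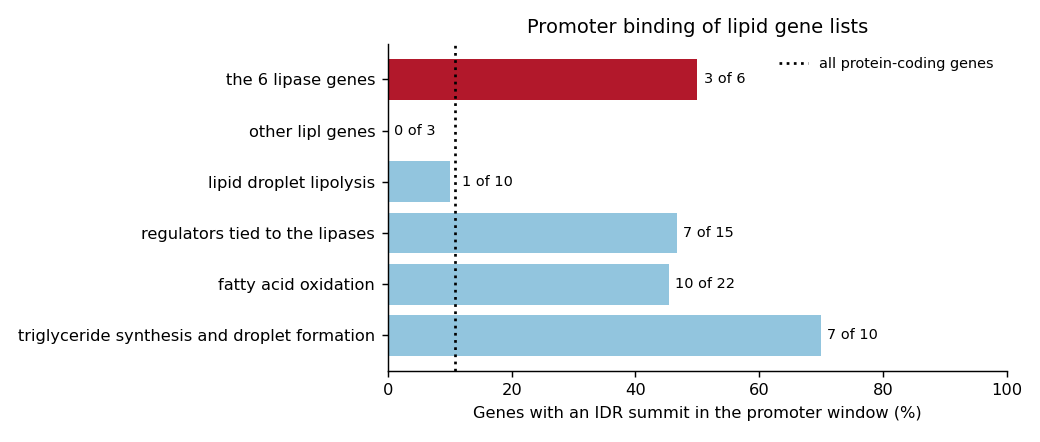
Share of genes with an IDR summit in the promoter window (x axis, %) for the 6 lipase genes and 5 lists of other lipid genes (y axis), with counts beside the bars; the dotted line is the 10.9% of all protein-coding genes. The 3 other lipl genes have no bound member, and triglyceride synthesis has the longest bar, 7 of 10.

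Other genes of fat metabolism were bound to different extents, with 25 of 60 listed genes bound in all against 10.9% of all protein-coding genes. The lists were drawn up with earlier results of these data known, so this share describes them and tests nothing. The remaining lysosomal lipase relatives lipl-6, lipl-7 and lipl-8 had no promoter peak in the IDR list. Of 10 genes for lipolysis at the lipid droplet and its control, 1 was bound, the perilipin gene plin-1, which encodes a coat protein of the droplet (signal 41.0 in replicate 1, 49.4 in replicate 2 and 92.8 in the IDR list). hosl-1, the homologue of hormone-sensitive lipase, and abhd-5.2, a relative of the ATGL co-activator CGI-58, were not bound, with pooled promoter signals of 14.7 and 36.6.

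Genes tied to the control of the lipases were bound in 7 of 15 cases. HLH-30 and MXL-3, the factors known to act on lipl genes, had promoter peaks about as strong as those of lipl-2 and lipl-5, at 63.3 for hlh-30 and 66.7 for mxl-3 in the IDR list. Higher were nhr-49, a nuclear receptor gene for fat use on fasting, with 185.0, and daf-16, the FOXO gene of the insulin pathway, with 141.9. The highest value, 1353 at mdl-1, belongs to a gene named in the labels as the tagged factor and had 14 IDR peaks in reach. Whether copies of mdl-1 on the transgene add to this value was not tested, so binding there cannot be told apart from them. The gene is counted in the 7 of 15 here and in the 25 of 60 lipid genes. klu-1, the other name in the labels, had no promoter peak in the IDR list and 1 IDR peak in reach.

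Among 22 genes of fatty acid oxidation, 10 were bound. The tallest promoter peak was that of acs-2, which encodes an acyl-CoA synthetase for mitochondrial oxidation, with 197.8 in replicate 1, 179.2 in replicate 2 and 376.7 in the IDR list. The carnitine palmitoyl transferase genes cpt-2 and cpt-4 followed with 120.6 and 120.2, and acox-1.1, a peroxisomal acyl-CoA oxidase gene, had 111.9. acdh-12 and maoc-1 shared 1 peak, so these counts are not of separate peaks. Triglyceride synthesis and droplet formation had 7 of 10 bound, among them the acyltransferase gene acl-6 (118.5), the seipin gene seip-1 (112.0) and the lipin gene lpin-1 (55.5 in replicate 1 and 29.9 in replicate 2). Of all 25 bound genes in these lists, 3 had CACGTG within 100 bp of the summit, against 18.4% of all IDR peaks. They were mdl-1, kat-1 and dgat-2, of which kat-1 was named after its value was seen.

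The promoter signals of the bound lipases were ordinary for bound genes. The strongest promoter peak had a median signal of 76.9 over the 2185 bound protein-coding genes, with quartiles at 57.5 and 117.2, and lipl-2, lipl-5 and atgl-1 (64.0, 73.7 and 76.2) lay between the lower quartile and the median. Their order changed with the replicate, since lipl-5 was highest of the 3 in replicate 1 (42.9) and lowest in replicate 2 (29.2). The bound genes with the most similar signals were found by the distance in log2 signal over the IDR, replicate 1 and replicate 2 values, 3 values from 2 libraries. They were nol-56 and rbpl-1 for lipl-2, pkc-3 and K04C1.2 for lipl-5, and Y105C5B.9 and irld-6 for atgl-1, at distances of 0.08, 0.08, 0.03, 0.05, 0.02 and 0.06. Such closeness reflects peak height alone.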

How the data were processed

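The values are 4 deposited peak lists on ce11. Per the readme texts deposited with each sample, a list was called on each replicate's alignments against a control, a pooled list on both replicates, and the IDR list was derived from these 3 lists. Each deposited signal value (column 7) is the peak caller's own. The deposited −log10 q value (column 9) was between 3.07 and 3.80 for IDR peaks and entered no result. For caller, aligner, IDR threshold and depth, the sources used here give nothing. The 4 lists on ce10 were not used. The 4293 IDR peaks stand unchanged in the pooled list, and are its 4293 highest by signal.

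Gene positions came from Ensembl release 115 (WBcel235), symbols and sequence from RefSeq. Chromosome names and lengths fitted the lists. A peak belonged to a gene if it overlapped the body extended by 5 kb. As replicate value a peak took the signal of the replicate peak over its summit, or else of the one overlapping it most. The labels number 2 biological replicates and give each its own biosample, with nothing on separate cultures. With 1 group, counts are set beside those of all genes or peaks and no test was made. Genes named are the members, genes at or nearest to their peaks, up to 4 of the strongest bound genes per list (all of a list of 3), the 2 most similar genes per bound member and the genes in the labels; hosl-1, abhd-5.2, hlh-30, mxl-3, dgat-2 and neighbours were named after their values were seen. Members and lists were chosen with earlier results of these data known. Code was checked on simulated peaks. Python 3.11.15, numpy 2.4.6, pandas 2.3.3 and matplotlib 3.10.9 were used.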

Additional observations from a re-analysis of the deposited data

How the results depend on the processing

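Alternatives covered the promoter window, the reach around genes, gene assignment, the list and signal threshold, the overlap required, the motif and its window, and each replicate alone. Of 38 alternative values, 29 stayed within 1.5 times the reported count. lipl-2, lipl-5 and atgl-1 were bound with either replicate's strongest 4293 peaks alone, with windows from 500 bp upstream and with peaks given to the nearest start, and lipl-4 joined them with windows from 2000 bp. At or above the median IDR signal, 1 of the 6 genes was bound (atgl-1), 13 of the 60 other lipid genes were, 5 peaks remained in reach and 1 of those had CACGTG. There atgl-1 counted only by its peak 989 bp upstream (76.2), close to the window edge, and its nearer promoter peak (65.4) fell below the median. The share of all protein-coding genes bound was not computed at this threshold, nor for the other windows, the nearest-start rule or single replicates. With the pooled list, 5 of the 6 and 47 of the 60 had a promoter summit, against 38.9% of all protein-coding genes. Within 10 kb the pooled list held 40 peaks, with CATGTG allowed 5 IDR peaks had a motif, and with neighbour windows from 2000 bp 1 promoter peak was shared. Without replicate 1 there were 10 peaks in reach and without replicate 2 there were 8. No paired analysis was possible because there is 1 group. Peak lists carry no depth, so a gene without an IDR peak is one where none was detectable by these thresholds.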
